A study of Mus musculus with 22 samples.

Results

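The genes described here are the CLIM cofactors Ldb1 and Ldb2, the LIM-only genes Lmo1, Lmo2 and Lmo4, the LIM homeodomain gene Lhx2, the single-stranded DNA binding gene Ssbp2 and the ubiquitin ligase gene Rlim. They were chosen by name as the cofactors that a dominant-negative CLIM protein (DN-CLIM) blocks and their direct partners. The choice was made with earlier results of these data known. Every probe set that the platform annotation pairs with exactly 1 of these genes was taken. That gave 9 probe sets for 7 of the 8 genes, of 12488 probe sets on the array. Lhx2 had no probe set paired with it alone and was not analysed here. Of the 9 probe sets, 8 were bright enough to be tested. The dimmer of the 2 Rlim probe sets was not, with a mean signal at percentile 20.7 of all probe sets.

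Back skin of CB6F1 mice was measured on 22 oligonucleotide arrays of 1 colour. DN-CLIM mice carry a transgene in which the keratin 14 (K14) promoter directs the dominant-negative protein to basal keratinocytes, and WT mice are their littermates without it. There were 5 DN-CLIM and 5 WT arrays at postnatal day 6 (P6), and each later age, P14 and P23, had 3 and 3. Hair follicles grow at P6 and P14 and rest at P23, per the series' design text. Which mouse or mice an array stands for is not labelled, so the p-values measure the spread between arrays.

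CLIM proteins have no DNA-binding domain of their own. They bind the LIM domains of other nuclear proteins and pair with each other, and so join LIM homeodomain factors, LIM-only proteins and their partners into complexes on DNA. LIM-only proteins lack a DNA-binding domain as well and compete with LIM homeodomain factors for CLIM, SSBP proteins shield CLIM from breakdown, and Rlim marks CLIM for it. In skin, CLIM proteins, Lmo4 and Lhx2 are found in the epidermis and hair follicle, and Lhx2 is known as a factor of hair follicle stem cells.

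Ldb1, Lmo1 and Lmo4 all had lower signals at P14 and P23 than at P6, and Lmo4 also differed between the genotypes, so their promoters are shown. Each is a RefSeq window (GRCm38.p6) of 250 bases before a start of the gene and 50 after it, 5′ to 3′ on the gene's strand. Lmo4 and Ldb1 have 3 such windows each and Lmo1 has 2. The window nearest the gene's annotated 5′ end is shown, and the others are not described. Capitals mark matches to 3 motifs, looked for on both strands: CANNTG, the E-box bound by the E proteins of LMO complexes, GATA, bound by GATA factors, and TAATTA, a core bound by many homeodomain proteins including LIM homeodomain factors. The windows lie at chr3:144205206-144205505 for Lmo4, chr19:46045262-46045561 for Ldb1 and chr7:109175158-109175457 for Lmo1, all on the minus strand.
Lmo4 promoter: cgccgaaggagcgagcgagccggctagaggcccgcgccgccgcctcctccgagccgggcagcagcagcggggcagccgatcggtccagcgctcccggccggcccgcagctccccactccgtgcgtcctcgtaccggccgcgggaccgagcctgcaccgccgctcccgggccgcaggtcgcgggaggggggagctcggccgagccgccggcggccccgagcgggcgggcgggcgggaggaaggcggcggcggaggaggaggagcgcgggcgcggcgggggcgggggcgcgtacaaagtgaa
Ldb1 promoter: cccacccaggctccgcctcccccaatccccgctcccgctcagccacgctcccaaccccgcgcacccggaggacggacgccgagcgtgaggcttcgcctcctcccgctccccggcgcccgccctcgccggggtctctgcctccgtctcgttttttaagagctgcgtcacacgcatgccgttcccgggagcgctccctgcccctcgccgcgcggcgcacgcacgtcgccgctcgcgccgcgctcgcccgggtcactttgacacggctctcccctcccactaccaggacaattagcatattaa
Lmo1 promoter: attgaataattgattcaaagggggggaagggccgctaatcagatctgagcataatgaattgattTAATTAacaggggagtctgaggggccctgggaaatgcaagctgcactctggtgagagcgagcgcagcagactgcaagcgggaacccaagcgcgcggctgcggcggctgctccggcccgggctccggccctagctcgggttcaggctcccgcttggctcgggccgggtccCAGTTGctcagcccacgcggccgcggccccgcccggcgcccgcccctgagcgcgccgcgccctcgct

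The Lmo4 and Ldb1 windows shown held none of these letters, with a G and C content of 81.3% and 71.3%. The Lmo1 window, at 66.3%, held 1 CANNTG and 1 TAATTA, which do not overlap. Among all 32851 such windows of 300 bases, 72.3% held CANNTG, 57.9% GATA and 5.29% TAATTA. A match is a description of the letters and not a site.

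Array quality bears on all of the values below. Signals are on the log2 scale, and levels are not compared between probe sets. Array medians lay between 7.56 and 7.80. Those of the P23 arrays, all at 7.78 or above, were higher than those of every P6 and P14 array (at most 7.74). Changes to P23 are given without removal of this shift, except under quantile normalization. An array's mean correlation with the others of its group was 0.933 to 0.972, lowest for DN-CLIM P6 replicate 5. That array had the highest of the 5 values of its group at 6 of the 8 tested probe sets (Ldb1, Ldb2, Lmo1, both of Lmo2 and Lmo4) and the lowest for Rlim. At P6, arrays numbered 4 and 5 differed from arrays 1 to 3 at 345 of 6211 tested probe sets, none of them among these genes. On 6 of 10 P6 arrays (2 DN-CLIM and 4 WT) the Xist and the Y-linked Eif2s3y signals were both above log2 6, which was so on none of the P14 and P23 arrays. These signals gave each array a sex class, used as a covariate in an alternative fit. The class with both signals occurred at P6 alone, so in that fit sex class is partly confounded with changes from P6. Probe sets of the keratinocyte keratins Krt5, Krt14 and Krt15 were dim (percentiles 23.7, 19 and 1.38), while Col17a1, another gene of basal keratinocytes, was at percentile 95. In bulk skin, fewer cells of a type and less RNA per cell cannot be told apart.

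Lmo4, a LIM-only gene with high expression in dividing epithelial cells, was the member that differed between the genotypes. At P6 its log2 signal was 10.37, 10.40, 10.26, 10.37 and 11.23 on the DN-CLIM arrays, against 10.92, 10.98, 10.74, 10.75 and 10.81 on the WT arrays. At P14 it was 9.80, 9.65 and 9.82 in DN-CLIM skin, against 10.40, 10.44 and 10.30 in WT skin. At P23 it was 9.89, 10.02 and 9.92 in DN-CLIM skin, against 10.37, 10.48 and 10.48 in WT skin. Of the 11 DN-CLIM arrays, 10 lay below every WT array of their age. The exception was DN-CLIM P6 replicate 5, which was the highest of all 22 arrays.

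Averaged over the 3 ages, the Lmo4 signal was 1.39-fold lower in DN-CLIM skin (log2 difference -0.48, SE 0.09, 95% interval -0.66 to -0.29, adjusted p = 0.0192 in limma, adjusted over all 6211 tested probe sets). It was the only member past the threshold of 0.05, 1 of 8 against a background of 0.177% of all tested probe sets. The members were chosen with earlier results of these data known, so these shares do not test them as a group. Lmo4 stood at rank 7 of all tested probe sets by p. This call was lost, with adjusted p between 0.0508 and 0.0545, without DN-CLIM P14 replicate 2, DN-CLIM P23 replicate 3, WT P23 replicate 2 or WT P23 replicate 3. With only arrays 4 and 5 kept at P6 the difference was -0.37 (adjusted p = 0.29), and without DN-CLIM P6 replicate 5 it was -0.54 (adjusted p = 1.34e-06).

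Within single ages no member passed, with 0 of 8 at each age in limma and 2, 1 and 1 at an unadjusted p under 0.05 at P6, P14 and P23. The shares of all tested probe sets past the threshold were 0.0322% at P6, 0.0644% at P14 and 0.161% at P23. The Lmo4 difference at P6 was -0.31 (SE 0.13, adjusted p = 0.56). The P14 value was -0.62 (SE 0.16, adjusted p = 0.22) and the P23 value -0.50 (SE 0.16, adjusted p = 0.603). At P6 it was -0.49 without DN-CLIM replicate 5 (adjusted p = 0.00429), -0.54 on arrays 1 to 3 alone (adjusted p = 0.0321) and 0.02 on arrays 4 and 5 alone (adjusted p = 0.977). The groups did not overlap for 0 of 8 probe sets at P6, where 0.95% of all did not, and for Lmo4 alone, 1 of 8, at P14 (background 15.2%) and at P23 (background 14.9%).

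**Figure D1:**
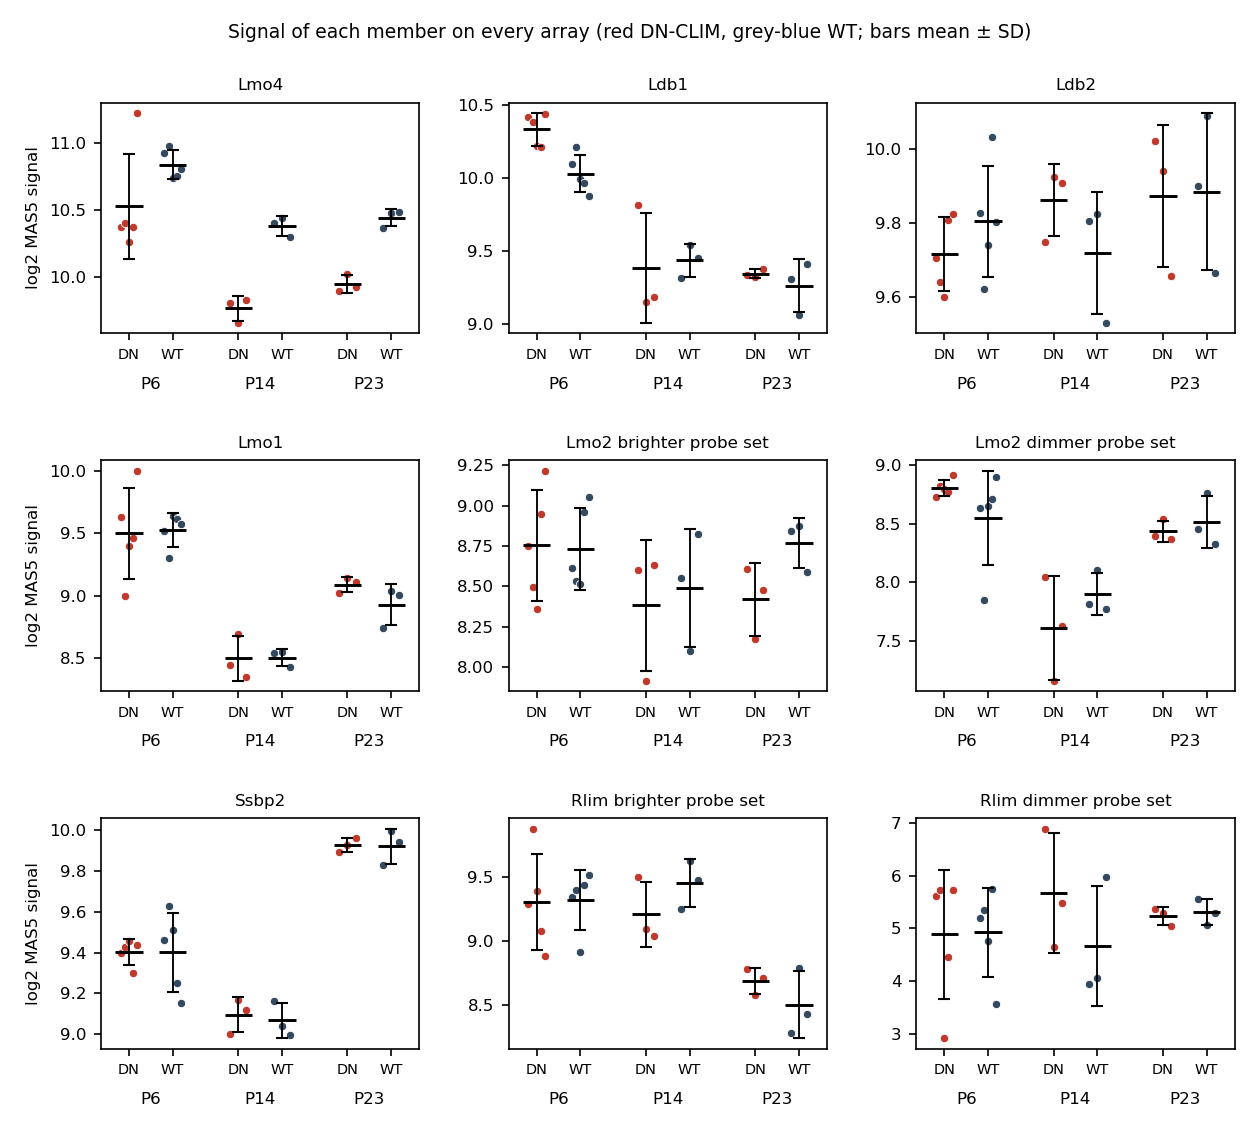
Log2 MAS5 signal (vertical axis, a scale of its own in each panel) of the 9 member probe sets on each array, by age and genotype; points are arrays and bars the mean ± SD (n = 5, 5, 3, 3, 3 and 3). For Lmo4 the red DN-CLIM points lie below the WT points of their age, apart from 1 point at 11.23 at P6, while Ssbp2 is highest and Rlim (brighter probe set) lowest at P23 in both genotypes.

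Signals of some cell type lists differed at the same ages, which is given here as a measurement beside Lmo4. The summed signal of the 9 basal keratinocyte genes (6 of them tested, with Krt5, Krt14 and Krt15 dim) was 5392 to 5875 in DN-CLIM skin against 6665 to 6964 in WT skin at P14. At P23 it was 9474 to 10250 against 11530 to 12720, and at P6 the ranges overlapped (4815 to 6125 and 5231 to 5746). Thus the DN-CLIM sums were below the WT sums at P14 and P23. Of all tested probe sets taken singly, 15.2% did not overlap at P14 and 14.9% at P23, in either direction. Lack of overlap is thus frequent with so few arrays, here and for the lists below. In the average over ages 2 of the 6 tested basal keratinocyte genes fell, while 3 of the 6 had a positive difference and the median was -0.01. At each single age 1 of the 6 fell past the threshold.

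The sums of 15 endothelial genes (12 tested, with Kdr, Tek and Flt1 dim) ran the same way, 4608 to 4810 in DN-CLIM skin against 4931 to 5120 in WT skin at P14 and 7928 to 8247 against 8998 to 9426 at P23. None of those 12 genes passed between the genotypes. The sums of 8 bulge genes (6 tested, with Krt15 and Lgr5 dim) were 4233 to 4610 against 4903 to 5309 at P23. Of the 6 tested bulge genes 1 fell past the threshold at P23, where 0.161% of all tested probe sets passed. None of the 6 passed in the average over ages. The sums of 5 Schwann cell and nerve genes (4 tested, with S100b dim) were 2349 to 2578 against 1762 to 2164 at P14 and 5682 to 6203 against 6240 to 6991 at P23. Those of 6 erythroid genes (3 tested, with Epb42, Klf1 and Car1 dim) were 8291 to 9882 against 5877 to 7851 at P23. The erythroid sum was mostly the signal of Hba-a1 (mean log2 12.92, beside 8.21 for Alas2 and 8.13 for Slc4a1). None of the 3 tested erythroid genes passed between the genotypes. Sums of the other 6 lists overlapped between the genotypes at P14 and P23. The part of these cell types in the Lmo4 difference was not tested.

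Ldb1, a CLIM gene that most tissues express, was the other member with an unadjusted p under 0.05 at P6. Its log2 signal there was 10.42, 10.39, 10.22, 10.21 and 10.44 on the DN-CLIM arrays, against 10.10, 10.21, 9.99, 9.97 and 9.88 on the WT arrays. The P14 signals were 9.82, 9.15 and 9.18 in DN-CLIM skin and 9.31, 9.54 and 9.45 in WT skin. The P23 signals were 9.34, 9.32 and 9.38 in DN-CLIM skin and 9.31, 9.06 and 9.41 in WT skin. At P6, 4 of 5 DN-CLIM arrays were above every WT array and the lowest DN-CLIM array and the highest WT array were equal to 2 decimals (10.21). At P14 and P23 the genotypes overlapped.

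The Ldb1 difference at P6 was 0.30 (SE 0.11, 95% interval 0.07 to 0.54), which failed the correction (adjusted p = 0.534 in limma). In the average over ages it was 0.11 (interval -0.05 to 0.27, adjusted p = 0.831). The sources used here do not say whether the Ldb1 probes also read the transgene, so RNA of the transgene and of Ldb1 cannot be told apart by this value. At P6 the sums of 11 skeletal muscle genes (10 tested, with Myh2 dim) did not overlap between the genotypes. They were 24630 to 32270 in DN-CLIM skin against 21240 to 24460 in WT skin. Of all tested probe sets taken singly, 0.95% did not overlap at P6. None of the 10 tested muscle genes passed between the genotypes at P6. The part of muscle in the Ldb1 values was not tested.

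The other genes did not separate by genotype. In the average over ages Ldb2 was at 0.01, Lmo1 at 0.04, the brighter and dimmer Lmo2 probe sets at -0.15 and -0.04, Ssbp2 at 0.01 and the brighter Rlim probe set at -0.02. With Ldb1, adjusted p ran from 0.831 to 0.989 and the 95% intervals of these 7 probe sets stayed within -0.41 and 0.27. At single ages the adjusted p of the 6 probe sets other than Lmo4 and Ldb1 was 0.718 to 0.995 for P6, 0.903 to 0.996 for P14 and 0.999 for P23. The median difference of the 8 tested probe sets was -0.01 for P6, -0.08 for P14 and 0.00 for P23, beside -0.01, 0.00 and 0.00 over all tested probe sets.

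Whether a genotype difference changed with age was tested by interaction terms. None of the 24 member tests passed in limma (adjusted p 0.752 to 0.998), and none had an unadjusted p under 0.05, the lowest being 0.0645. Over all tested probe sets 0.0161% passed for P14 against P6, 0% for P23 against P14 and 0.0161% for P23 against P6. The larger Lmo4 difference at P14 is therefore not shown to differ from that at P6.

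**Figure D2:**
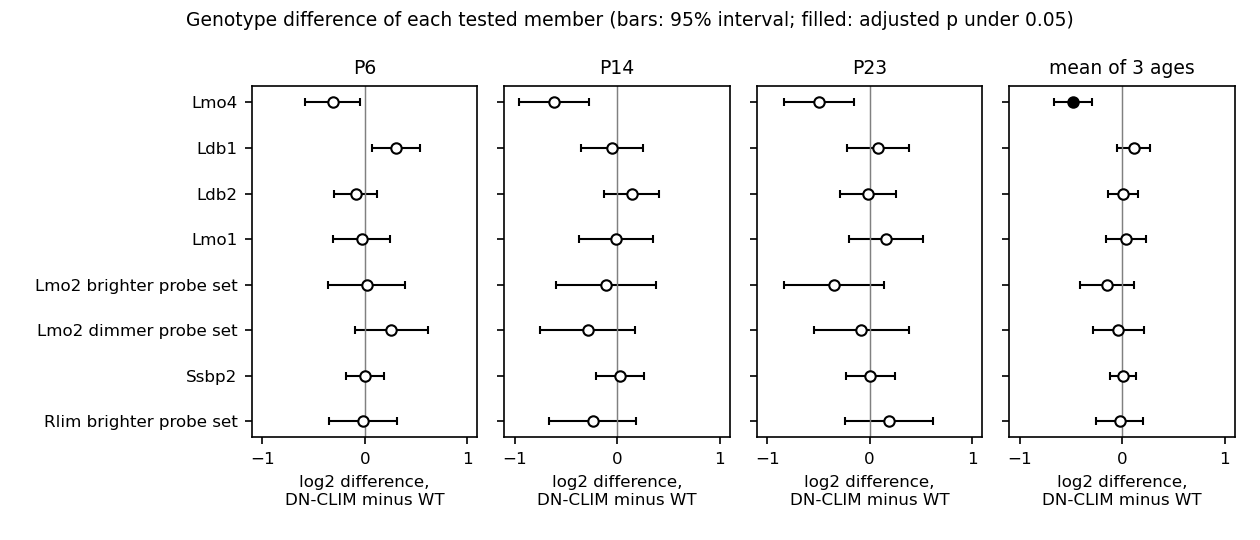
Log2 difference, DN-CLIM minus WT (horizontal axis), of the 8 tested member probe sets at P6, P14, P23 and as the mean of the 3 ages; bars are 95% intervals and filled points have an adjusted p under 0.05. The filled point is Lmo4 in the mean of the ages, at -0.48.

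Between P6 and P14, 5 of 8 probe sets fell in both genotypes, those of Ldb1, Lmo1, Lmo4 and Ssbp2 and the dimmer of Lmo2, and none rose. This was 5 of 8 against a background of 26.8% of all tested probe sets in DN-CLIM skin and 20.8% in WT skin. With members chosen knowing earlier results of these data, the comparison is no test of the group. The median change of the 8 was -0.57 in DN-CLIM skin and -0.40 in WT skin, beside 0.00 and -0.01 over all tested probe sets. The WT count was 3 with only the arrays compared and 1 with sex class, partly confounded with age, as a covariate. It was 2 without WT P14 replicate 3 and 3 without WT P6 replicate 2 or WT P14 replicate 1 or 2. Averaged over the genotypes the same 5 fell, where 40.1% of all tested probe sets passed.

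Between P14 and P23, 3 of 8 rose (Lmo1, the dimmer Lmo2 probe set and Ssbp2) and 1 fell (Rlim), in each genotype and in their average. These 4 of 8 stood near the background, 54.3% in DN-CLIM skin, 54.2% in WT skin and 66.5% averaged, and are no result about these genes as a group. The WT count was 2 without WT P14 replicate 1 or 3 or WT P23 replicate 2. Between P6 and P23, 1 of 8 rose (Ssbp2) and 4 fell (Ldb1, Lmo1, Lmo4 and Rlim), again in each genotype and averaged. The background was 54.8% in DN-CLIM skin, 54.0% in WT skin and 66.8% averaged, also near the members' share. The age contrasts share the arrays of an age, so they are not independent of each other.

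**Figure D3:**
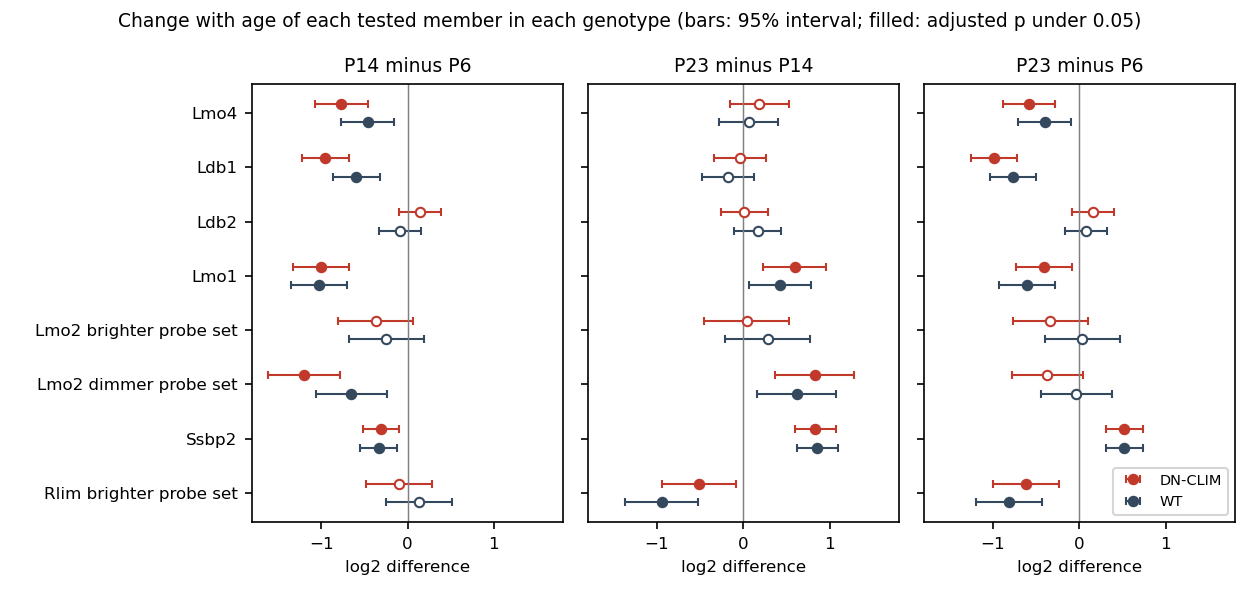
Log2 change (horizontal axis) of the 8 tested member probe sets between P6 and P14, P14 and P23, and P6 and P23, in DN-CLIM (red) and WT (dark) skin; bars are 95% intervals and filled points have an adjusted p under 0.05. Filled points lie on the same side of 0 in both genotypes for each probe set, as for Ldb1 at -0.95 and -0.59 between P6 and P14.

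Of the cofactors, Ldb1 dropped and stayed low while Ldb2 kept its level. Ldb1 averaged 10.33 ± 0.11 in DN-CLIM and 10.03 ± 0.13 in WT skin at P6 (SD, n = 5 each), 9.38 ± 0.38 and 9.44 ± 0.11 at P14, and 9.35 ± 0.03 and 9.26 ± 0.18 at P23 (n = 3 each). At P14 it was 1.93-fold below P6 in DN-CLIM skin (log2 change -0.95, SE 0.13, limma adjusted p = 1.39e-05) and 1.51-fold below in WT skin (-0.59, SE 0.13, adjusted p = 0.00221). At P23 it was below P6 by -0.99 in DN-CLIM and -0.77 in WT skin (adjusted p = 1.28e-06 and 3.40e-05). Every P6 array lay above every P14 and P23 array, and the 4 groups of P14 and P23 overlapped. With sex class as a covariate the P14 change in WT skin was -0.49 (adjusted p = 0.051).

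Ldb2, the second CLIM gene, averaged 9.72 ± 0.10 and 9.81 ± 0.15 (DN-CLIM and WT) at P6, with P14 means of 9.86 ± 0.10 and 9.72 ± 0.16 and P23 means of 9.87 ± 0.19 and 9.89 ± 0.21. Its 6 group means spanned 0.17, about the residual SD of 0.15 between arrays, and no age change passed. All its groups overlapped their neighbours in level. Across the 22 arrays the Pearson correlation of Ldb1 and Ldb2 was -0.44, a description only, since the arrays share age groups.

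Lmo1, a LIM-only gene known from neural tissue and T cell leukaemia, was lowest at P14 in both genotypes. Its log2 signal at P6 was 9.63, 9.0, 9.40, 9.47 and 10.004 on the DN-CLIM arrays and 9.52, 9.30, 9.64, 9.62 and 9.58 on the WT arrays. At P14 it was 8.45, 8.70 and 8.35 in DN-CLIM skin and 8.54, 8.55 and 8.43 in WT skin. At P23 it was 9.02, 9.14 and 9.11 in DN-CLIM skin and 8.74, 9.04 and 9.01 in WT skin. Every P14 array was below every array of the other ages, whichever the genotype, while the P6 and P23 groups of DN-CLIM skin overlapped.

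The Lmo1 signal at P14 was 2.0-fold below P6 in DN-CLIM skin (log2 change -1.0, SE 0.16, limma adjusted p = 6.50e-05) and 2.04-fold below in WT skin (-1.03, SE 0.16, adjusted p = 4.86e-05). It rose between P14 and P23 by 0.59 in DN-CLIM skin (adjusted p = 0.00656) and by 0.42 in WT skin (adjusted p = 0.0442), and at P23 remained below P6, by -0.41 (adjusted p = 0.0299) and -0.60 (adjusted p = 0.00249). The rise in WT skin was lost without any 1 of WT P14 replicates 1, 2 and 3 or WT P23 replicates 2 and 3, with no filter, with 50 added to each signal, with quantile normalization and with sex class (0.35 to 0.44, adjusted p 0.0504 to 0.128). The DN-CLIM change to P23 was lost without DN-CLIM P6 replicate 1 or 5 or any 1 DN-CLIM P23 array, with only the arrays compared, with sex class and with array weights (-0.44 to -0.27, adjusted p 0.0543 to 0.0985).

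Lmo4 also fell after P6 and, unlike Lmo1, showed no rise past the threshold by P23 (adjusted p = 0.357 in DN-CLIM and 0.766 in WT skin); the difference between the genes was not tested. At P14 it was below P6 by -0.77 in DN-CLIM skin (SE 0.15, adjusted p = 0.000605 in limma) and by -0.46 in WT skin (SE 0.15, adjusted p = 0.029). At P23 it was below P6 by -0.58 (adjusted p = 0.00197) and -0.40 (adjusted p = 0.0263). From the highest level to the lowest the groups ran WT P6 (10.84 ± 0.11), DN-CLIM P6 (10.53 ± 0.40), WT P23 (10.44 ± 0.07), WT P14 (10.38 ± 0.07), DN-CLIM P23 (9.94 ± 0.07) and DN-CLIM P14 (9.76 ± 0.09). The second place rests on DN-CLIM P6 replicate 5, since the other 4 arrays of that group averaged 10.35, below WT P14. Neighbours overlapped except WT P14 with DN-CLIM P23 and DN-CLIM P23 with DN-CLIM P14.

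In WT skin both Lmo4 age changes were frail. The P14 change was lost without WT P6 replicate 1 or 2 or any 1 WT P14 array (-0.49 to -0.42, adjusted p 0.0562 to 0.109), and the P23 change without WT P6 replicate 2 or any 1 WT P23 array (-0.42 to -0.36, adjusted p 0.0511 to 0.0903). With sex class as a covariate they were -0.22 (adjusted p = 0.462) and -0.15 (adjusted p = 0.534). In that fit class and age are partly confounded, so it cannot say which of them the smaller values reflect. In DN-CLIM skin both kept their call under every alternative tried.

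The 2 probe sets of Lmo2, a LIM-only gene of blood-forming and endothelial cells, disagreed. The brighter one averaged 8.75 ± 0.34 and 8.73 ± 0.25 (DN-CLIM and WT) at P6, with P14 means of 8.38 ± 0.41 and 8.49 ± 0.37 and P23 means of 8.42 ± 0.22 and 8.77 ± 0.16, and changed past the threshold in no contrast. The dimmer one averaged 8.81 ± 0.07 and 8.55 ± 0.40 at P6, with P14 means of 7.61 ± 0.44 and 7.90 ± 0.18 and P23 means of 8.44 ± 0.09 and 8.52 ± 0.23. It fell between P6 and P14 by -1.20 in DN-CLIM skin (SE 0.20, adjusted p = 0.00014 in limma) and -0.65 in WT skin (SE 0.20, adjusted p = 0.0234), and rose by P23 by 0.82 (adjusted p = 0.00348) and 0.62 (adjusted p = 0.0236). Its P14 mean in DN-CLIM skin, 7.61, lay below the limit of 7.67 that the mean over all arrays had to reach. The sizes of its DN-CLIM changes thus rest in part on dim values.

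The WT fall of the dimmer probe set was lost without WT P6 replicate 5 or WT P14 replicate 1 or 3, with only the arrays compared and with sex class (-0.76 to -0.56, adjusted p 0.0562 to 0.0989). The WT rise was lost without WT P14 replicate 1 or 3 or WT P23 replicate 2 (0.49 to 0.57, adjusted p 0.0666 to 0.107). Beside it, the endothelial sums were 5903 to 7005 in DN-CLIM and 5807 to 6657 in WT skin at P6, so the P14 sums given above were the lowest and the P23 sums the highest in both genotypes. Their part in the Lmo2 values was not tested.

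Ssbp2, whose protein stabilises CLIM complexes, had its highest signals in resting skin. Its log2 signal at P6 was 9.40, 9.43, 9.46, 9.30 and 9.44 on the DN-CLIM arrays and 9.46, 9.63, 9.51, 9.25 and 9.15 on the WT arrays. The P14 arrays gave 9.0, 9.17 and 9.12 in DN-CLIM skin and 9.16, 9.04 and 9.0 in WT skin. The P23 arrays gave 9.89, 9.93 and 9.96 in DN-CLIM skin and 9.83, 9.997 and 9.94 in WT skin. All 6 arrays of P23 lay above all 16 of the earlier ages, and the genotypes overlapped at each age.

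At P23 the Ssbp2 signal was 1.78-fold above P14 in DN-CLIM skin (log2 change 0.83, SE 0.11, limma adjusted p = 2.88e-06) and 1.81-fold above in WT skin (0.85, SE 0.11, adjusted p = 1.90e-06), and 0.52 above P6 in each (adjusted p = 0.000178 and 0.000197). Its fall between P6 and P14 was smaller, -0.31 in DN-CLIM skin (adjusted p = 0.0299) and -0.33 in WT skin (adjusted p = 0.024). That fall was lost in DN-CLIM skin without P6 replicate 3 or any 1 P14 array (-0.34 to -0.26, adjusted p 0.0508 to 0.12). In WT skin it was lost without P6 replicate 2 or 3 or P14 replicate 2 or 3 (-0.32 to -0.28, adjusted p 0.0512 to 0.105). It was also lost with sex class, at -0.25 in DN-CLIM (adjusted p = 0.105) and -0.22 in WT skin (adjusted p = 0.294), and with only the arrays compared (adjusted p = 0.0958 and 0.0876).

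Rlim, which marks CLIM proteins for breakdown, ran the other way at its brighter probe set and was lowest in resting skin. The log2 signal at P6 was 9.29, 9.88, 9.39, 9.08 and 8.89 on the DN-CLIM arrays and 9.34, 9.40, 8.91, 9.44 and 9.51 on the WT arrays. In P14 skin it was 9.50, 9.09 and 9.03 in DN-CLIM skin and 9.25, 9.62 and 9.48 in WT skin. In P23 skin it was 8.78, 8.58 and 8.71 in DN-CLIM skin and 8.28, 8.79 and 8.43 in WT skin. All 6 arrays of P23 were below all 16 of P6 and P14, which overlapped.

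At P23 the Rlim signal was below P14 by -0.52 in DN-CLIM skin (SE 0.21, adjusted p = 0.0378 in limma) and by -0.95 in WT skin (SE 0.21, adjusted p = 0.000517), and below P6 by -0.61 (adjusted p = 0.00755) and -0.82 (adjusted p = 0.000734). The DN-CLIM change after P14 was lost without P14 replicate 1 or any 1 P23 array and with no filter (-0.56 to -0.37, adjusted p 0.0532 to 0.175). The dimmer Rlim probe set scattered, with group means of 4.66 to 5.68 and SDs up to 1.22, and is not set against the brighter one. Across the 22 arrays the Pearson correlation of Rlim and Ssbp2 was -0.73, a description over arrays that share ages.

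Signals of the cell type lists also moved with age, and are given beside these changes. The summed signal of the 10 hair matrix and inner root sheath genes was 71710 to 97870 at P6, 105700 to 129100 at P14 and 3565 to 4050 at P23 in DN-CLIM skin, and 68530 to 113700, 107400 to 122100 and 3716 to 4107 in WT skin. All 10 were tested. Between P14 and P23, 9 of the 10 fell in each genotype, as did 8 of 8 hair shaft keratins. Over the same interval 9 of 12 endothelial, 5 of 6 fibroblast, 4 of 6 basal keratinocyte and 3 of 4 adipocyte genes rose in each genotype. In DN-CLIM and WT skin 6 and 7 of 7 macrophage genes and 8 and 9 of 10 skeletal muscle genes rose. So did 2 and 4 of 4 Schwann cell and nerve genes and 3 and 4 of 6 bulge genes. Of the erythroid genes, 2 of 3 fell in each genotype. Against the direction of their lists, 1 basal keratinocyte and 1 skeletal muscle gene fell in each genotype. Of the bulge genes, 2 fell in DN-CLIM and 1 in WT skin. Adipocyte sums were 6510 to 8525 at P6, 3739 to 4145 at P14 and 9284 to 12800 at P23 in DN-CLIM skin, and 7151 to 8709, 3084 to 3815 and 11340 to 13980 in WT skin. Muscle sums were 23880 to 34330 at P14 and 78400 to 82960 at P23 in DN-CLIM skin, and 29160 to 34670 and 77620 to 95740 in WT skin. Between P6 and P14, 4 and 3 of 6 fibroblast and 5 and 4 of 12 endothelial genes fell in DN-CLIM and WT skin. So did 3 and 2 of 4 adipocyte, 3 and 1 of 6 bulge and 1 and 3 of 7 macrophage genes. The same held for 1 and 2 of 4 Schwann cell and nerve genes. In that interval 6 of 8 hair shaft keratins rose in each genotype. So did 2 and 3 of 6 basal keratinocyte, 3 and 4 of 10 skeletal muscle and 2 and 1 of 3 erythroid genes. Of the 10 hair matrix and inner root sheath genes, 1 rose in each genotype and 1 fell in DN-CLIM skin. Against their lists, 1 bulge gene rose in each genotype and 2 and 1 skeletal muscle genes fell. In DN-CLIM skin 1 adipocyte gene rose and 1 basal keratinocyte gene fell. Over all tested probe sets 26.8% and 20.8% passed. The part of these cell types in the members' age changes was not tested.

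The patterns across arrays most like each gene's are given as descriptions over the 22 arrays, which share age groups. For Ldb1 they were those of Tmsb10 (Pearson r 0.93), Lmna (0.92) and Cirbp (0.92), and for Lmo1 those of Ggct (0.92), Calm4 (0.91) and Cdkn1c (0.91). With the group means removed these were 0.67, 0.39 and 0.18 for Ldb1 and 0.37, 0.24 and 0.42 for Lmo1. Without DN-CLIM P6 replicate 5 as well, the Lmo1 values were 0.32, 0.47 and -0.29. Ssbp2 ran most like Sptssa, Slc50a1 and Htra1 (0.96 each) and Rlim most like Actb (0.91), Lars (0.88) and Tubb3 (0.88). With the group means removed these were 0.55, 0.64 and 0.64 for Ssbp2 and 0.82, 0.67 and 0.64 for Rlim. Ldb2 and the brighter Lmo2 probe set had no partner above 0.72. Nearest were Zfp930 (0.71), Ube2k (0.70) and Bphl (0.70) for Ldb2 and Atp5c1, Car4 and Cant1 (0.72 each) for Lmo2. With the group means removed these were 0.70, 0.67 and 0.76 for Ldb2 and 0.65, 0.70 and 0.81 for Lmo2.

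Lmo4 ran most like Nid2 (0.83), Prmt1 (0.82) and Tab2 (0.82). After the group means were removed these were 0.85, 0.89 and 0.67, and without DN-CLIM P6 replicate 5 as well 0.35, 0.59 and 0.08. Within groups, then, the likeness to Nid2 and Tab2 rested on that array.

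Of 36 further partners of CLIM and LIM complexes, 26 had a probe set and 11 were tested, and none of the 11 differed between the genotypes at any age or averaged in limma. None of the LIM homeodomain genes with a probe set was bright enough to be tested. The 5 with the smallest p in the average over ages were Zfpm1, a cofactor of GATA factors, at 0.17 (adjusted p = 0.491), the E protein gene Tcf12 at -0.13 (0.685), Lyl1, a helix-loop-helix gene of blood cells, at 0.23 (0.728), the GATA factor gene Gata3 at -0.13 (0.763) and the repressor gene Bach1 at -0.24 (0.768).

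With age, between P6 and P23, 5 of 11 rose and 4 fell in DN-CLIM skin, and 4 rose and 4 fell in WT skin. Over all tested probe sets 54.8% and 54.0% passed in these contrasts. Tcf12 rose by 0.88 in DN-CLIM and 0.92 in WT skin (adjusted p = 2.08e-07 and 1.01e-07 in limma), and the E protein gene Tcf4 by 0.42 and 0.74, whereas Tcf3, the third E protein gene measured, fell by 0.44 and 0.45. Lyl1 fell between P6 and P14 by 0.68 and 0.97 and rose between P14 and P23 by 1.30 and 1.8. Its P14 means, 7.45 in DN-CLIM and 6.96 in WT skin, lay below the limit of 7.67 that the mean over all arrays had to reach. The sizes of these changes thus rest on dim values, and 1 of its 2 probe sets was tested. Deaf1, whose protein binds Lmo4, fell between P6 and P23 by 1.18 and 0.63, Ssbp4, of the Ssbp2 family, by 0.61 and 0.72, and Zfpm1 by 0.39 and 0.37. Pitx1 (1.08) and Bach1 (0.67) passed in DN-CLIM skin and Gata2 (0.82) in WT skin. None of the interaction tests of the 11 passed, so these are not shown to differ between genotypes. The Pitx1 means at P6, 7.21 in DN-CLIM and 7.57 in WT skin, also lay below the limit of 7.67, so its rise starts from dim values. For Gata2 and Bach1 1 of 2 probe sets was tested, and for Ssbp4 1 of 3.

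**Figure D4:**
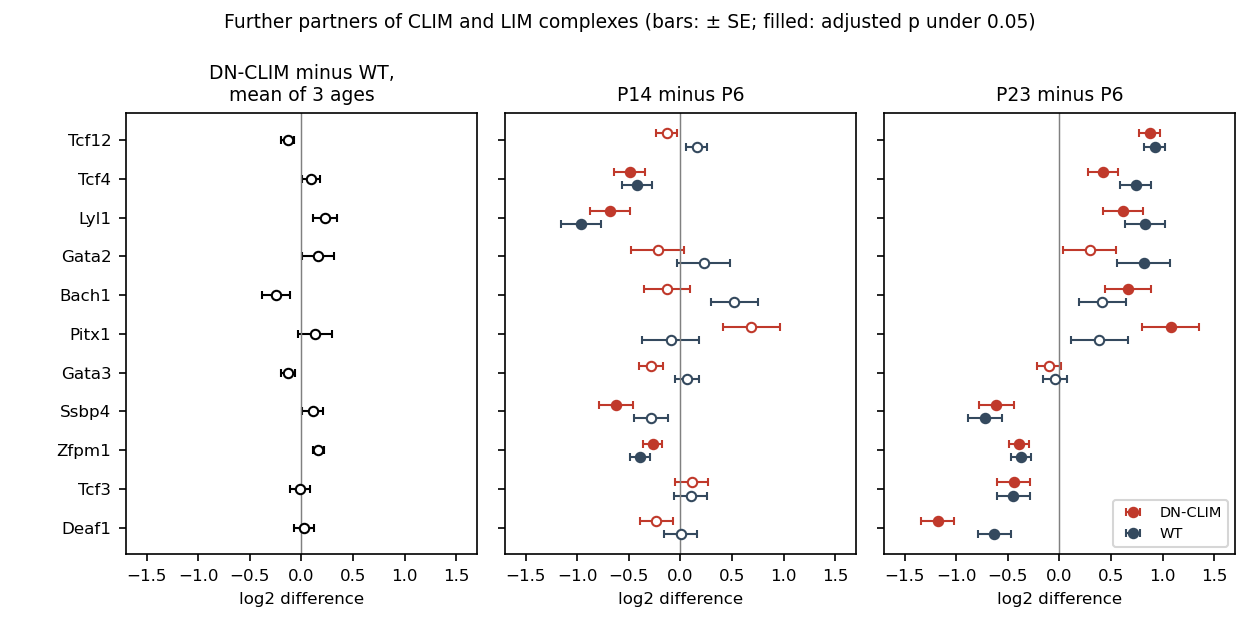
Log2 difference (horizontal axis) of the 11 tested further partners, DN-CLIM minus WT as the mean of 3 ages, and change between P6 and P14 and between P6 and P23 in DN-CLIM (red) and WT (dark) skin; bars are ± SE and filled points have an adjusted p under 0.05. No point is filled for genotype, while 9 DN-CLIM and 8 WT points are filled between P6 and P23, among them Tcf12 at 0.88 and 0.92.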

How the data were processed

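Back skin RNA was hybridised to 22 arrays of 1 colour. Each deposited value is a linear MAS5 signal, an intensity that the authors computed for every probe set (tool per the submitters' processing notes; version not stated there). The trimmed mean was 500.2 to 500.3 on every array. Groups and replicate numbers came from the titles. The 66 control probe sets were left out, and the 6211 of mean log2 signal at or above the median (7.67, a signal of 203) were tested with limma 3.58.1 in R 4.3.3 on log2 signals, with 1 mean per group, eBayes with trend and Benjamini-Hochberg adjustment (threshold 0.05). The fit was tested on simulated data. Dim probe sets are the noisiest, and the number of arrays limits the precision. All member probe sets are named, with the 3 patterns most like each gene's brightest one. Further partners are named where past the threshold or among the 5 of smallest p between genotypes. The members and lists were chosen with earlier results of these data known. Alternatives changed the filter, a pseudocount of 50, quantile normalization, array weights, the arrays fitted, blocks, sex class and each array, with the choices of P6 arrays added after seeing the data.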

Additional observations from a re-analysis of the deposited data

Results flagged for a closer look

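In each P6 group of 5 arrays, the gap between an extreme array and its nearest neighbour was set against the range of the group, with a limit of 0.71 (Dixon's value for 5 arrays). Chance passes it in about 1 in 20 groups, and 3 of 18 groups passed. DN-CLIM P6 replicate 5 stood above the others for Lmo4 (11.23 beside 10.26 to 10.40), with a gap of 0.853 of the range. WT P6 replicate 2 stood apart at the dimmer Lmo2 probe set (lowest value 7.85) with a gap of 0.743. WT P6 replicate 3 stood apart at the brighter Rlim probe set (8.91 beside 9.34 to 9.51) with a gap of 0.714.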

How the results depend on the processing

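Of 354 alternative values of 14 genotype differences, 319 kept direction and call, 6 lost the call (all of them the Lmo4 average), 4 gained one (all Lmo4) and 25 changed sign. Of 432 alternative values of 28 age changes, 378 kept direction and call, 54 lost the call and none changed sign. The cause was not tested. The Lmo4 average was -0.4769 with the replicate block (adjusted p = 0.0524, so 0 members past the threshold), -0.3654 with P6 arrays 4 and 5 alone (0 members) and -0.5352 to -0.4547 without single arrays (0 to 1 members); the block changed no other call. Deviations of same-numbered arrays correlated at -0.005 to 0.185 at P6, -0.047 to 0.029 at P14 and 0.056 to 0.249 at P23, so not every pair was above 0.1 and the numbers were not taken to pair the arrays. At P23 every same-numbered pair was above the different-numbered ones (-0.177 to 0.051) and sex class went with the number, a hint from the data. Array weights gave 1 member past the threshold at P14 and 1 at P23 (Lmo4). At P6 there were 0 to 1 without single arrays and 1 with arrays 1 to 3 alone. Between P6 and P14 in WT skin 3 passed with only the arrays compared, 1 with sex class and 2 to 5 without single arrays; between P14 and P23 in WT skin, 2 to 4. The sign turned with array weights for Lmo1 (-0.0105) and Rlim (3e-04), with P6 arrays 1 to 3 alone for Lmo2 (dimmer, 0.0126), Rlim (0.0828) and Ssbp2 (-0.0243), all averaged over ages, and with P6 arrays 4 and 5 alone for Lmo4 at P6 (0.0206). Without single arrays the averages ran from -0.0233 to 0.0493 for Ldb2, -6e-04 to 0.083 for Lmo1, -0.1089 to 0.0383 for Lmo2 (dimmer), -0.0714 to 0.0252 for Rlim and -0.009 to 0.0307 for Ssbp2, and the Ldb1 difference from -0.27 to 0.0631 at P14 and -0.0157 to 0.1614 at P23. Signal over background limits the dimmer Rlim probe set.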
